A study of Mus musculus with 8 samples.

Results

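Cytosolic ribosomal protein genes were followed in single-cell RNA libraries of mouse bone marrow cells grown with M-CSF, the growth factor that drives macrophage differentiation. Members were all genes whose symbol begins with Rpl or Rps and a digit, plus Rplp0, Rplp1, Rplp2 and Rpsa, without pseudogene symbols and Rps6k kinases, that held at least 50 unique molecular identifiers (UMIs, counts of tagged molecules) over all cells. Of 94 such symbols, 84 were members, among 32249 genes listed in the files. They comprised 41 large subunit proteins, 30 small subunit proteins, 3 proteins of the ribosomal stalk, 8 paralogues or retrogenes, and 2 genes whose products are not ribosomal subunits despite their symbols (Rps19bp1 and Rpl7l1). Among the paralogues or retrogenes, GENCODE vM21 lists Rps3a3 as a processed pseudogene, and Rps4l and Rpl37rt as transcribed processed pseudogenes. The 10 symbols below 50 UMIs were Rpl10l, Rpl23a, Rpl32l, Rpl36, Rpl3l, Rpl6l, Rps12l1, Rps23rg1, Rps29 and Rps3a2.

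The mice were C57Bl/6J, with male sex and an age of 10 weeks given on the labels, and their marrow was cultured for 3 days with M-CSF. The 4 control libraries were then kept for 24 h without addition, and the 4 CYR61 libraries for 24 h with CYR61, a matricellular protein encoded by Ccn1, at 4 µg/mL. RNA was captured with HIVE arrays, in which cells settle into microwells with barcoded beads. Nothing in the labels tells whether a replicate is an animal or a culture, so p-values measure the spread between these libraries, which may be technical.

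Each cytosolic ribosome joins a small subunit, which reads the messenger RNA, to a large subunit, which forms the peptide bond. The stalk of the large subunit (Rplp0 with Rplp1 and Rplp2) recruits translation factors. Ribosomal protein messengers are among the most abundant in growing cells, and many begin with a run of pyrimidines through which their translation responds to mTOR and the RNA-binding protein LARP1. Mammalian genomes hold many processed pseudogenes of these genes, so short reads cannot always be assigned to 1 locus.

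Cells were barcodes with at least 300 genes and at most 20% mitochondrial UMIs, each kept only in the library of its file date where it held most UMIs, since many barcodes were listed for several libraries with equal date stamps. This left 9196 cells of 12848 kept among 40000 barcodes, from 294 in control 3 to 3604 in CYR61 2. In control 2, 315 cells remained of 2135, and 1899 of those 2135 barcodes were also listed in another library of that date. The UMIs summed per library ranged from 842528 to 13933610. In 4 libraries (control 2, control 3, CYR61 1 and CYR61 2) Xist stood at 1152 to 1249 CPM (a gene's UMIs scaled to a fixed library total) and Y-linked genes at 0.144 to 8.31 CPM, against the label male, and in the other 4 at 0 to 1.16 CPM with Y-linked genes at 323 to 399 CPM. They are called Xist libraries and Y libraries below. Both groups hold 2 of each. The defining macrophage markers were present in every library, with the list summing to 20917 to 33537 CPM.

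The members together took between 0.787% and 1.25% of the counted UMIs. This is not a share of the RNA itself, since how reads shared with pseudogenes were counted is not given in the sources used here. A single gene, Rpl4, held 12.2% of the members' mean CPM, the 10 highest held 44.0%, and the lowest 42 members together held 7.92%. Rpl4, a large subunit protein with a long extension inside the subunit, stood at 1472, 1114, 1149 and 1394 CPM in control replicates 1 to 4 and at 1047, 1090, 1458 and 1351 CPM in CYR61 replicates 1 to 4. Its 4 highest values were those of the Y libraries, and the control and CYR61 values overlapped. Rps3, a small subunit protein at the messenger entry channel, followed with a mean of 549 CPM. Others among the 10 highest were Rpl8 with 440, Rps21 with 379, Rps19 with 325, Rpl22 with 315, Rpl32 with 315, Rps24 with 310.2 and Rps9 with 296 CPM. Per kilobase of the annotated transcript taken for each gene, Rps21 ranked 1 at 962 CPM per kb, Rpl4 ranked 2 at 819 and Rpl22 ranked 3 at 665. Rps3, with a transcript of 1908 bases taken, fell to rank 15 at 288. These ranks depend on which transcript was taken, and whether transcript length affects the UMI counts was not tested.

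**Figure D1:**
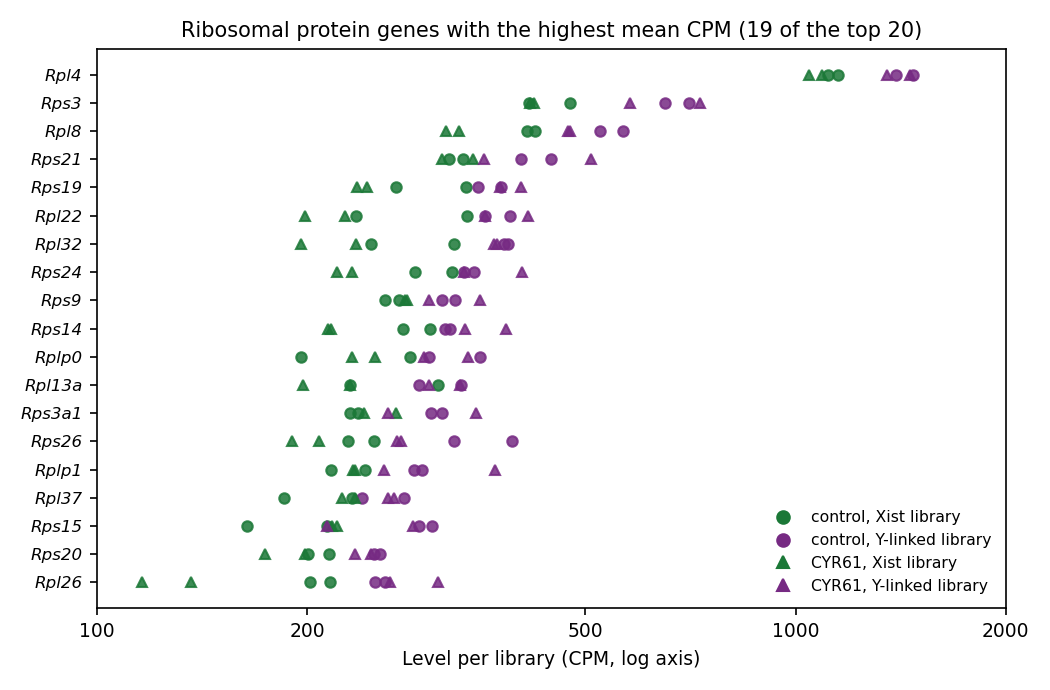
CPM (log axis) in each of the 8 libraries of 19 of the 20 ribosomal protein genes with the highest mean level. Circles are control and triangles CYR61 libraries, green Xist and purple Y libraries; for Rpl4 the purple points lie between 1351 and 1472 CPM and the green points between 1047 and 1149 CPM, while circles and triangles overlap.

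The start regions of the 6 members with the highest mean level and a RefSeq promoter entry are shown for the pyrimidine runs described above. Whether these sequences bear on the measured levels was not tested. Each region spans 50 bases before to 30 bases after the annotated start on GRCm38.p6 (mm10), and capitals mark the longest pyrimidine run.

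Rpl4, chr9:64173337-64173416, plus strand: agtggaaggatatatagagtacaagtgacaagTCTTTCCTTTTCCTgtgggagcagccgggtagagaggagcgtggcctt

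Rps3, chr7:99483680-99483759, minus strand: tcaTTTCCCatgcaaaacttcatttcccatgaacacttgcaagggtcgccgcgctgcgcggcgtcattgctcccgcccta

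Rps21, chr2:180257329-180257408, plus strand: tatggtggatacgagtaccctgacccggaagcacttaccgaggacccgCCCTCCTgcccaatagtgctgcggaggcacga

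Rps19, chr7:24884542-24884621, plus strand: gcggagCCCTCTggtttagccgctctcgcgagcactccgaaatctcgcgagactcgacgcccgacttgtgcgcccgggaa

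Rpl22, chr4:152325676-152325755, plus strand: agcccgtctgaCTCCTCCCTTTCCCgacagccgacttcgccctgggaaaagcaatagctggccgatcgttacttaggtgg

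Rps24, chr14:24490628-24490707, plus strand: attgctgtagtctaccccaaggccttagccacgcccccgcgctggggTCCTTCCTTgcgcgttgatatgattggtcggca

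The run was 14 bases long in Rpl4 and Rpl22, 9 in Rps24, 7 in Rps21 and 6 in Rps3 and Rps19. It lay wholly before the annotated start in Rpl4, Rpl22, Rps3 and Rps19, and crossed it in Rps21 and Rps24. In Rps3 another run of 6 bases ties with the marked one. RefSeq entries were matched for 65 of 84 members. Among the 57 of these that are not paralogues, retrogenes or Rps19bp1, 46 (80.7%) had a pyrimidine run of 8 or more bases within 50 bases on either side of the start, against 35.7% of 27025 promoters. With the window ended 30 bases after the start, the shares were 56.1% and 30.2%. The letters CCGGAAG, on either strand anywhere in the 300 bases, were in 23 of 57 (40.4%), against 9.12% of all promoters and 36.2% of 69 mitochondrial ribosomal protein genes. The letters AAGATGG, which can share AAG with that motif, were in 14.0%, against 6.48% of all promoters and 18.8% of the mitochondrial ribosomal protein genes. TATAAA, on either strand in the 50 bases before the start, was in 0 of 57. It was also in 0 of 69 mitochondrial ribosomal protein genes, and in 3.78% of all promoters. These are matches of letters, not measured sites, and the windows and run lengths (8, 10 and 12 bases) were tried in turn.

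The comparison of CYR61 with control asks whether the protein changed the levels of these genes, and no member passed the test. In the edgeR quasi-likelihood test with Benjamini-Hochberg adjustment over all 10422 genes tested, 0 of the 77 members past the low-count filter had an adjusted p under 0.05, with 1.16% of all genes called (1.12% higher and 0.0384% lower in CYR61 libraries). At an unadjusted p under 0.05 there were 3 members (Rpl10a, Rps16 and Rps27l), with 6.20% of all genes. DESeq2 called 0 members, and its calls over all genes are given with the alternatives below. At an unadjusted p under 0.05 it gave 4 members, and the share of all genes at that p is not given here. Fitted values lay below 0 for 58 members and above 0 for 19, and 52.7% of all genes tested lay below 0. The members' median was -0.17 on the log2 scale, against -0.02 over all genes tested. The 7 members that did not pass the filter were Rpl36a, Rpl19, Rps27, Rpl27, Rpl39l, Rps6 and Rpl24.

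Summed over the 84 members, the level was 11917, 9582, 9259 and 12491 CPM in control replicates 1 to 4 and 8107, 7872, 12502 and 11072 CPM in CYR61 replicates 1 to 4. The means were 10812 ± 1629 (SD, n = 4) and 9888 ± 2271 CPM (SD, n = 4), and the difference of -924 CPM was smaller than either SD. The highest and the lowest library were both CYR61 libraries. Large subunit genes summed to 4895 ± 743 CPM (SD, n = 4) without CYR61 and 4358 ± 1105 CPM (SD, n = 4) with it. Small subunit genes summed to 4719 ± 773 (SD, n = 4) and 4395 ± 964 CPM (SD, n = 4). The 3 stalk genes summed to 721 ± 118 (SD, n = 4) and 743 ± 141 CPM (SD, n = 4). The ratio of small subunit to large subunit and stalk sums stayed between 0.803 and 0.904 in the 8 libraries.

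**Figure D2:**
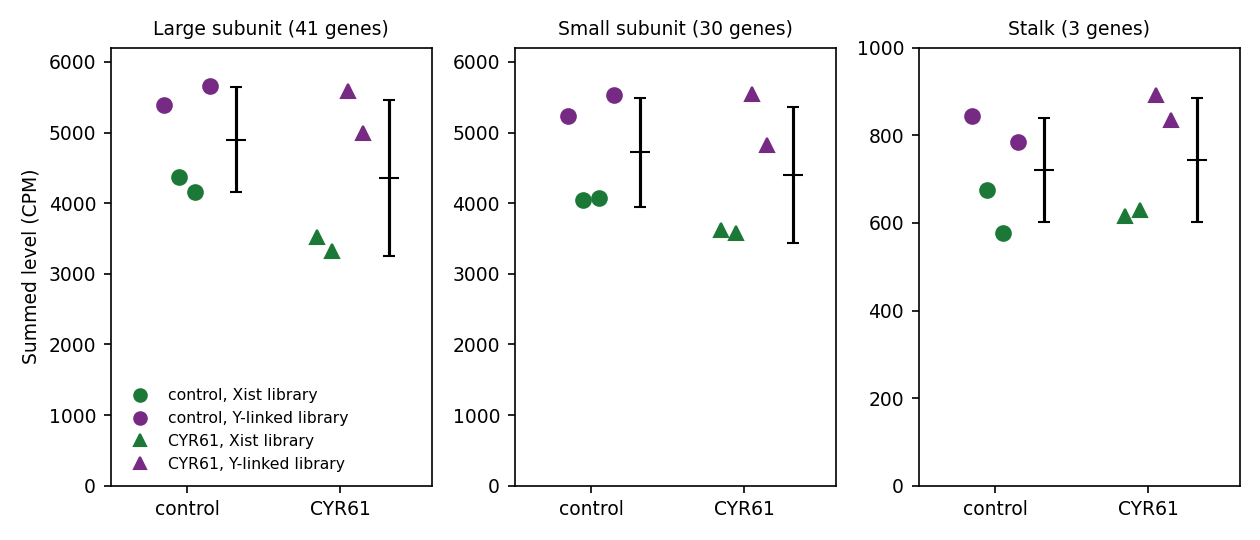
Summed CPM of the large subunit, small subunit and stalk genes in each library, with black bars for the group mean ± SD (n = 4). In every panel the green Xist libraries lie below the purple Y libraries, and control (circles) and CYR61 (triangles) overlap.

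The members with the largest fitted decreases were low in level. Rpl10a, a large subunit protein near the exit site, was at 29.97, 31.4, 52.2 and 30.9 CPM in control replicates 1 to 4 and at 21.1, 20.5, 13.1 and 15.2 CPM in CYR61 replicates 1 to 4. It was the single tested member whose groups did not overlap, with a log2 fold change of -0.98 (SE 0.31, edgeR adjusted p = 0.338), while 2.25% of all genes tested lay wholly lower and 2.87% wholly higher in CYR61 libraries. Rps16, a small subunit protein, averaged 20.9 CPM without and 8.43 CPM with CYR61, but control 2 at 4.25 CPM lay below every CYR61 library (log2 -1.26, SE 0.55, adjusted p = 0.765). Rps3a3, a retrogene copy of Rps3a1, Rps27rt and Rpl21 completed the 5, with fitted values of -1.08, -0.995 and -0.895 on the log2 scale and adjusted p from 0.915 to 0.978. Rps3a3 was at 1.64, 1.87, 24.4 and 4.81 CPM in CYR61 replicates 1 to 4, so 1 CYR61 library exceeded every control.

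The members with the largest fitted increases did not separate the groups either. Rpl7a, a large subunit protein, was at 18.9, 7.64, 1.19 and 23.9 CPM in control and 12.5, 12.4, 33.9 and 21.1 CPM in CYR61 replicates 1 to 4 (log2 0.56, SE 0.60, edgeR adjusted p = 0.9999). Rpl28, Rps4l, Rpl7l1 and Rpl30 followed with 0.40, 0.34, 0.25 and 0.16 on the log2 scale. Rps27l, the most abundant paralogue at 171 CPM on average, ranged from 157 to 262 CPM without CYR61 and from 108 to 170 CPM with it, and the groups overlapped (log2 -0.54, SE 0.23, adjusted p = 0.727).

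The files carry 2 date stamps, replicates 1 and 2 with the earlier and 3 and 4 with the later, and what the stamp records is not stated. The difference of the CYR61 effect between the stamps was tested as an interaction. By edgeR 0 members were called, with 0.00% of all genes called, and 13 had an unadjusted p under 0.05, with 10.1% of all genes; all 13 had positive values. The smallest p-values were those of the large subunit genes Rpl39 (log2 1.55, SE 0.42), Rpl26 (1.13, SE 0.32) and Rpl18 (1.20, SE 0.39), with adjusted p of 0.392, 0.392 and 0.403. Rpl39 stood at 73.6 and 80.7 CPM in the controls and at 30.1 and 22.4 CPM in the CYR61 libraries of the earlier stamp, and at 58.2 and 87.7 against 89.6 and 69.3 CPM in the later. CYR61 1 and CYR61 2, of the earlier stamp, were both Xist libraries, and CYR61 3 and CYR61 4, of the later, both Y libraries, so for the CYR61 libraries the stamp and the Xist split cannot be told apart. The members' median fold change was -0.37 in the earlier stamp alone and 0.007 in the later alone.

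The members' summed levels separated the Xist from the Y libraries. The sums were 9582, 9259, 8107 and 7872 CPM in the Xist libraries and 11917, 12491, 12502 and 11072 CPM in the Y libraries, with means of 8705 ± 842 and 11996 ± 674 CPM (SD, n = 4 each), a ratio of 1.38. The groups did not overlap, and within control and within CYR61 libraries both Y libraries exceeded both Xist libraries. This split was defined from Xist and Y-linked counts and is not a group of the study, and its coefficient was read after the split was seen. In an edgeR fit with the agent and the split as terms, 30 of 77 members were higher in Y libraries, with 7.61% of all genes called higher, and 2 were lower (Rps4l and Rpl7l1), with 7.72% called lower. Among the tested genes with a mean of at least 50 CPM, 12.6% of 3882 were called higher, and of the members at that level 23 of 42 (54.8%). The members' median difference was 0.49 on the log2 scale, against 0.01 over all genes tested.

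**Figure D3:**
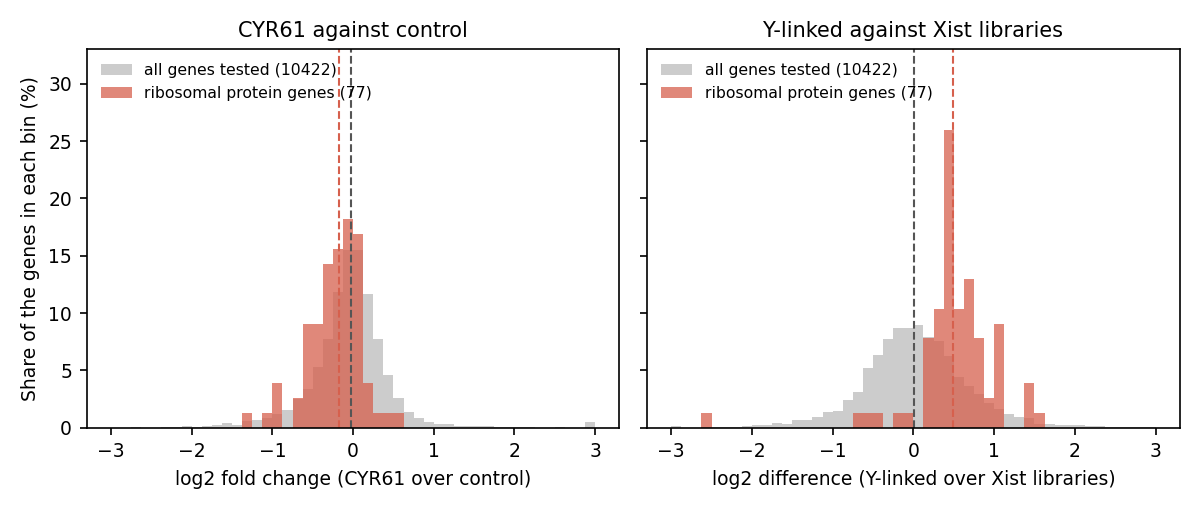
Distribution of log2 values for the 77 tested ribosomal protein genes (red) and all 10422 genes tested (grey), for CYR61 over control (left) and Y over Xist libraries (right), as the share of genes in each bin; dashed lines are medians and end bins hold values beyond 3. The red median lies at -0.17 on the left and at 0.49 on the right, and the grey medians at -0.02 and 0.01.

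By class, 17 of 37 tested large subunit genes, 10 of 28 small subunit genes and 2 of 3 stalk genes were higher in Y libraries, and none of these classes had a member called lower. Rps3 was at 415, 475, 423 and 417 CPM in the Xist libraries and 650, 703, 729 and 579 CPM in the Y libraries (log2 0.63, SE 0.13, edgeR adjusted p = 0.00464). Rpl8, a large subunit protein, averaged 371 ± 55.5 and 510 ± 44.6 CPM (SD, n = 4 each; log2 0.48, SE 0.11, adjusted p = 0.00969). Rps15a of the small and Rpl13 of the large subunit, picked after their values were seen, had the largest differences among members with a mean above 100 CPM, with log2 1.11 and 1.07. Rps4l, an autosomal copy of the X-linked Rps4x, went the other way, with 5.94, 10.7, 6.32 and 7.11 CPM in the Xist libraries and 0.582, 0, 2.61 and 1.87 CPM in the Y libraries (log2 -2.52, SE 0.72, adjusted p = 0.0263). Rpl7l1, known for its part in ribosome assembly, averaged 102 ± 13.5 and 68.6 ± 12.05 CPM (SD, n = 4 each; log2 -0.54, SE 0.16, adjusted p = 0.0357).

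Some other measures separated the Xist from the Y libraries, and others overlapped. The neutrophil marker list (12 genes) summed to 649 to 1668 CPM in Xist and 1703 to 3657 CPM in Y libraries, and the megakaryocyte or platelet list to 375 to 717 and 765 to 1372 CPM. The macrophage list, at 20917 to 26712 and 26109 to 33537 CPM, and the monocyte list, at 818 to 1235 and 678 to 1109 CPM, overlapped. T or NK cell markers were at or below 1.08 CPM in every library. Median UMIs per cell were 1027.5 to 1595 in Xist and 789 to 1144 in Y libraries, with overlap. The part of these cell-type measures in the members' difference was not tested beyond the values that follow. Cells with at least 500 UMIs were thinned to 500 and the others left out, which kept 426 of 499 cells in CYR61 3 and 3598 of 3604 in CYR61 2. In these thinned cells members took 0.780% to 0.878% of UMIs in Xist and 1.07% to 1.20% in Y libraries. Without thinning, and without the cells that held 2 or more neutrophil-list UMIs, the shares were 0.784% to 0.895% and 1.01% to 1.14%. In that fit 19 of 53 tested members were called higher, with 7.97% of all genes. Per library, median UMIs were 1195.5 to 5936 in removed and 632 to 1141 in remaining cells, so the cut also removed deeper cells. It left 521831 of 3436577 UMIs in control 1. With the date stamp also in the fit, 13 of 77 were called higher, with 4.20% of all genes. Leaving out CYR61 2 gave 11 of 74, with 4.21% of all genes, and leaving out CYR61 1 gave 15 of 74, with 4.71%. With cells that held 80% of their barcode's UMIs, which left control 4 with 187 cells, 5 of 69 were called higher, with 3.54% of all genes, and the shares were 0.778% to 0.926% against 1.11% to 1.19%. The median difference stayed above 0 in all 19 alternative fits, from 0.40 to 0.59.

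Within the 4 Y libraries alone, the median CYR61 log2 fold change of the 80 members in that fit was -0.04 and 0 were called, with 1.85% of all genes called; 3 (Rps16, Rpl10a and Rpl39l) had an unadjusted p under 0.05, with 7.81% of all genes. Within the 4 Xist libraries alone the median of 81 members was -0.27 and 2 were called, both lower. Of all genes in that fit 3.06% were called in either direction, and the share called lower is not given here. At an unadjusted p under 0.05 there were 19 members, with 22.0% of all genes. The called members were Rpl39 (log2 -1.32, SE 0.25, edgeR adjusted p = 0.0485) and Rps3a3, listed as a processed pseudogene (log2 -2.97, SE 0.50, adjusted p = 0.0387). Both fits rest on 2 libraries a group and were chosen after the split was seen, and the difference between them was not tested. In each fit the CYR61 libraries share a date stamp while the controls carry different stamps, so agent and stamp are partly mixed.

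Paralogues gave their own pattern. Rps27l encodes a close relative of the small subunit protein Rps27, and Rps27rt is a retrogene. The first 90 coding bases are shown because they bear on which locus a read can be assigned to, with capitals in Rps27l where it differs from Rps27 (GENCODE vM21, GRCm38).

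Rps27, chr3:90212522-90213651, minus strand: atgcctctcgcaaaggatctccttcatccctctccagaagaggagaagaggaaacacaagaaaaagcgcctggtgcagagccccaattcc

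Rps27rt, chr9:114982366-114982739, minus strand: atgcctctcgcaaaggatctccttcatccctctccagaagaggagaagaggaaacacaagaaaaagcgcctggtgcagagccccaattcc

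Rps27l, chr9:66946086-66949516, plus strand: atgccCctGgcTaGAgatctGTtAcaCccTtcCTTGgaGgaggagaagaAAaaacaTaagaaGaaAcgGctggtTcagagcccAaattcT

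Over the whole coding sequence of 252 bases Rps27 and Rps27rt were identical (100%), and Rps27 and Rps27l shared 76.2%. Rps27 was counted at 2.53 to 7.64 CPM and Rps27rt at 2.58 to 24.9 CPM, while Rps27l, of whose 50-base words near the transcript end 28.8% recur in other genes, was at 108 to 262 CPM. Rps27l made up 96.9% to 98.4% of the UMIs of Rps27 and Rps27l in every library, a share that depends on how reads shared by Rps27 and Rps27rt were counted, which is not given in the sources used here. Rpl22l1 made up 8% to 14.1% of the UMIs of Rpl22 and Rpl22l1. Rpl36al made up 78.7% to 97.1% of the UMIs of Rpl36a and Rpl36al, and every 50-base word near the end of the Rpl36a transcript (100%) also occurs in another gene. Rpl7l1 made up 25.6% to 59.3% of the UMIs of Rpl7 and Rpl7l1.

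Rpl39l, a copy of Rpl39 best known from the male germ line, did not pass the filter of the fit over 8 libraries. In the fit of the Y libraries alone its CYR61 fold change was log2 -2.11 (SE 1.02, edgeR adjusted p = 0.611). Its UMIs numbered 27 in control 1, 12 in control 4, 11 in CYR61 4 and 1 in CYR61 3, all Y libraries. In the Xist libraries there were 2 in CYR61 2 and 0 in control 2, control 3 and CYR61 1. As a share of Rpl39 and Rpl39l, control 1 gave 9.64% (95% Wilson interval 6.71 to 13.7%) and CYR61 1 gave 0% (upper bound 1.59%), and the intervals cover counting error only. Rps4l made up 5.73% to 9.28% of the UMIs of Rps4x and Rps4l in Xist libraries and 0% to 1.69% in Y libraries.

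Levels were set against how much of a gene's transcript end recurs elsewhere. For the 77 ribosomal protein genes that are not paralogues, including 3 under 50 UMIs, the share of 50-base words in the last 400 transcript bases that also occur in another gene was computed. The 42 genes with over 50% shared had a median of 32.6 CPM, and 12 of them lay under 10 CPM. The 20 genes with some sharing up to 50% had a median of 123 CPM, with 2 under 10 CPM, and the 15 with none had 53.4 CPM, also with 2 under 10 CPM. Spearman's rho between share and CPM was -0.417 across these 77 genes, which share libraries and are not independent replicates. Sharing also fell with transcript length (rho -0.485), and rho between length and CPM was 0.147. Rpl4, Rps3 and Rps24 shared none, while Rps19 shared 68.9% and still stood at 325 CPM. The share covers only the end of 1 annotated transcript per gene, so a gene with none shared can still have near copies. For Rps24 and Rpl31, with none shared, rows named as their pseudogenes held 1332 and 1046 UMIs, and for Rpl4 and Rps3 0. Rps29, a small subunit protein, stood at 1.19 CPM with 35.8% shared. The bins were set after the values were seen, and the part of multi-mapping in these levels was not tested. Rows named as pseudogenes of these genes (285) held 15953 UMIs, against 302178 in the members.

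**Figure D4:**
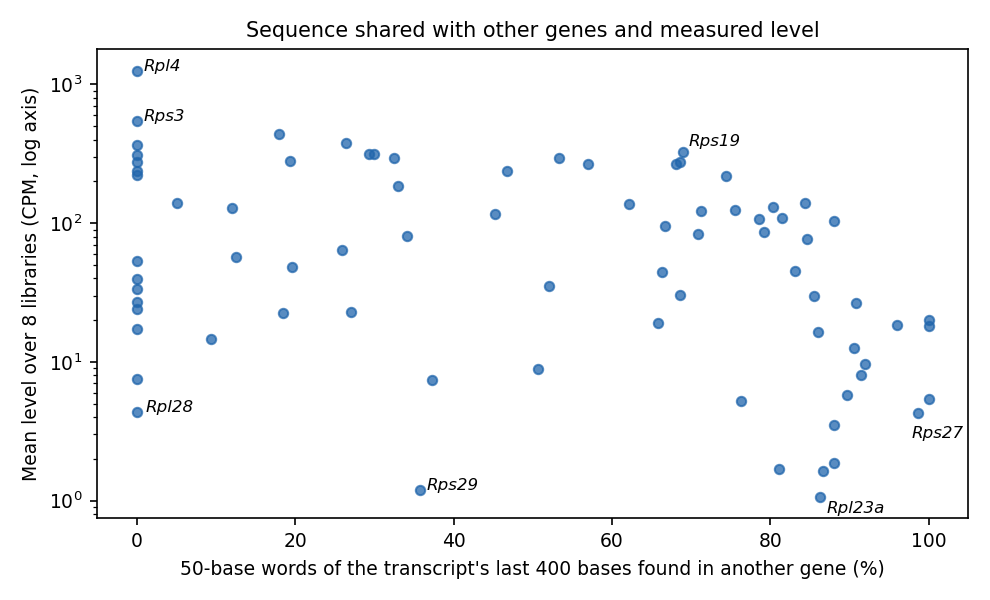
Mean CPM over the 8 libraries (log axis) against the percent of 50-base words of the transcript's last 400 bases found in another gene, 1 point for each of 77 ribosomal protein genes. Of the genes to the right of 50%, 12 lie under 10 CPM, and Rpl4 at 0% is the highest.

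Other genes of translation are given from lists. In the comparison of CYR61 with control, 1 of their genes was called, the interferon-induced kinase Eif2ak2 (PKR), which phosphorylates the initiation factor eIF2. It stood at 92.2, 94.2, 127 and 42.9 CPM in control replicates 1 to 4 and at 218, 212, 205 and 223 CPM in CYR61 replicates 1 to 4, with no overlap (log2 1.30, SE 0.25, edgeR adjusted p = 0.0238). It was not called in all kept cells, or without control 1, control 2, CYR61 1 or CYR61 4. None of 77 tested mitochondrial ribosomal proteins, 66 ribosome biogenesis factors, 39 initiation factors, 15 elongation and termination factors and 14 snoRNA host genes was called. Among ribosomal components with other names, Rack1 averaged 722 ± 136 CPM without and 709 ± 86.6 CPM with CYR61 (SD, n = 4 each). Fau, which encodes a ribosomal protein fused to a ubiquitin-like protein, averaged 8.75 CPM without and 4.92 CPM with CYR61 (log2 -0.85, SE 0.60, edgeR adjusted p = 0.967).

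Between Xist and Y libraries the same lists gave counts in both directions, to be read against the 7.61% of all genes called higher and 7.72% called lower. Of 14 snoRNA host genes, whose introns hold small nucleolar RNAs, 9 were higher in Y libraries and 0 lower, among them Gas5 (136 to 282 CPM, log2 1.11, SE 0.18, edgeR adjusted p = 0.00108). Of 66 biogenesis factors 1 was higher and 7 lower, among them Nop58, Ddx21 and Ebna1bp2 with log2 -1.30, -1.27 and -0.99. Of 77 mitochondrial ribosomal proteins 4 were higher and 2 lower, of 39 initiation factors 6 and 3, and of 15 elongation and termination factors 2 and 3. For the mitochondrial ribosomal proteins and the biogenesis factors called lower, these counts lie near the shares of all genes. Eef1a1, which delivers aminoacyl-tRNA to the ribosome, averaged 907 CPM in Xist and 1217 CPM in Y libraries (log2 0.43, SE 0.13, adjusted p = 0.0330). Differences between the lists were not tested.

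**Figure D5:**
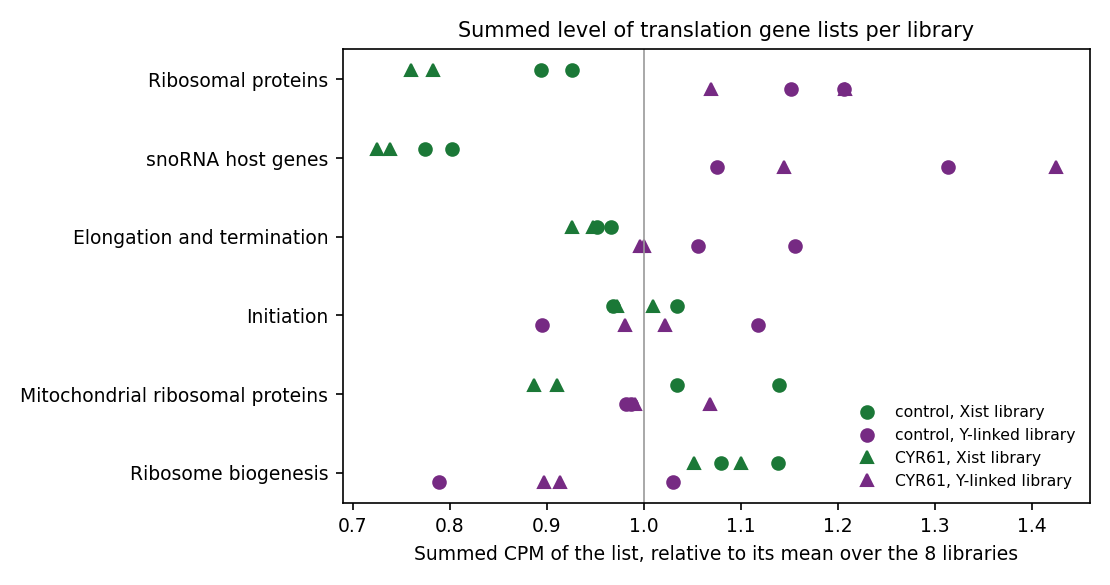
Summed CPM of 6 translation gene lists in each library, divided by the list's mean over the 8 libraries. For ribosomal proteins and snoRNA hosts all purple Y libraries lie above all green Xist libraries, for elongation factors they do so narrowly, and for biogenesis factors all lie below.

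Within a library, members were compared between cells marked by 2 or more UMIs of a list and the other cells, at 500 UMIs each, with no test because cells are not replicates. Cells marked by proliferation genes had the higher member share in 7 of 8 libraries, with a median difference of 0.0705 percentage points. In CYR61 2, 654 marked cells had 0.798% and 2944 other cells 0.775%. Cells marked by monocyte genes were higher in 6 of 8 libraries, by neutrophil genes in 3 of 7, by interferon response genes in 2 of 5 and by MHC class II genes in 2 of 3. The unthinned and stricter settings (3 or more UMIs) gave median differences for proliferation of 0.0769 and 0.0263 percentage points. The other lists depended on the setting: unthinned, neutrophil-marked cells were higher in 8 of 8 libraries (median difference 0.108 points, against -0.00297 thinned), interferon-marked cells in 7 of 8, monocyte-marked cells in 8 of 8 and MHC class II-marked cells in 4 of 7. With the stricter setting these were 2 of 5, 2 of 4, 1 of 2 and 1 of 1.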

How the data were processed

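The deposited files hold counts, whole numbers of UMIs per gene and cell barcode for 5000 barcodes in each of 8 libraries, on genome build mm10 per the submitters' processing notes; for the aligner, counter, annotation and cell-calling rule: not given in the sources used here. Library totals spanned 1379637 to 16318946 counts. The labels supplied each sample's group and replicate number.

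Members, gene lists and tests were chosen with earlier results of these data known. Cells were filtered and assigned to a home library as the report states, and counts were summed per library. Genes were tested with edgeR 4.0.16 in R 4.3.3 (TMM, filterByExpr, quasi-likelihood, all 8 libraries, agent as the sole term), with Benjamini-Hochberg adjustment over all genes tested and a threshold of 0.05. DESeq2 1.42.0, other scalings, filters, cell sets, batch terms and left-out libraries were alternatives. The date interaction and the Xist and Y split were further fits; the split was read as a result, and the fits within Xist or Y libraries were added, after seeing the data. The test was checked on simulated counts.

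Named members were those called, the 10 highest by mean CPM, the 5 largest fitted increases and decreases, the 3 smallest interaction p-values and the paralogue pairs. From the lists, Eif2ak2, the ribosomal components named otherwise and called genes were named. Some genes that these rules name are not reported here. Cells with at least 500 UMIs were thinned to 500 with a fixed seed in numpy 2.4.6, and cells with fewer were left out of the thinned values. Shares of single libraries carry 95% Wilson intervals, which cover counting error only. Positions and transcripts are GENCODE vM21, with the lowest-numbered principal transcript of each gene taken after the longest gave odd isoforms. Promoters are RefSeq's for GRCm38.p6, printed over a wider window than first planned. No doublets were removed.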

Additional observations from a re-analysis of the deposited data

Results flagged for a closer look

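In 4 of 64 groups checked, 1 library lay apart from the other 3 of its group by more than Dixon's 95% limit, which chance exceeds in about 1 of 20 groups. Rps3a3 was at 24.4 CPM in CYR61 3, against 1.64 to 4.81 CPM in the other CYR61 libraries. Rpl10a was at 52.2 CPM in control 3, against 29.97 to 31.4 CPM in the other controls. Rps27 was at 4.55 CPM in CYR61 4, against 2.53 to 2.73 CPM in the other CYR61 libraries. Rpl7 was at 177 CPM in CYR61 3, against 73.8 to 87.7 CPM in the other CYR61 libraries.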

How the results depend on the processing

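No member was called for CYR61 against control in 26 of 27 alternatives; the exception was the Xist libraries alone, with 2. The members' median log2 fold change ran from -0.29 (without CYR61 3) to -0.003 (without control 4) when a library was left out, and it was 0.007 in the later stamp alone. The summed difference ran from -1795 to -252 CPM. Of single members, Rpl4, Rps3, Rps19 and Rps24 changed sign in 8 of 27 settings and Rps4x in 10, all uncalled. Over all genes, 121 were called: 239 with no filter, 77 at 50 CPM in 4 libraries, 183 by DESeq2, 231 with the split as a term, 0 in all kept cells, 73 without neutrophil-marked cells, 287 with date and split, 196 in Y libraries, 371 in Xist libraries, and 74 (without CYR61 4) to 127 (without CYR61 3) with 1 library left out. Correlations between control and CYR61 libraries of the same replicate number were -0.20, 0.32, -0.09 and 0.31 for numbers 1 to 4. Numbers 2 and 4 join libraries of the same Xist or Y kind, and numbers 1 and 3 join libraries of different kinds. These correlations therefore cannot decide whether replicate numbers pair the samples. The fit with the replicate block called 0 members and 112 genes, with a member median of -0.19. Of the translation lists 1 gene was called, 0 in all kept cells and 0 to 1 with 1 library left out.

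The 32 members called between Xist and Y libraries became 14 with the date as a term, 5 in cells with 80% of their barcode's UMIs, 19 without neutrophil-marked cells, and 11 (without CYR61 2) to 33 (without control 3) with 1 library left out, with 15 without CYR61 1. Calls over all genes fell too, from 793 higher and 805 lower to 438 and 460 with the date term, 308 and 305 in the 80% cells, and 478 and 387 without neutrophil-marked cells. The count was larger by DESeq2, with 38 members higher and 2 lower and 1123 and 1036 of all genes. In all kept cells 42 members were higher and 2 lower, with 1431 and 1371 of all genes. The split is unbalanced by date stamp: among Xist libraries only control 3 carries the later stamp, and among Y libraries only control 1 the earlier. The cause of these shifts was not tested. Under the other scalings, 0 members were called for CYR61 and 31 or 32 between Xist and Y libraries. Depth limits the low members: 7 members could not be tested, and fitted values of members under 10 CPM carry wide errors.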

Other observations

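Among single cells, the share of UMIs from ribosomal protein genes varied within each library. In CYR61 2 the middle cell had 0.766%, with the lower and upper quartiles at 0.604% and 0.934%, and in control 4 the middle cell had 1.17%, with quartiles at 0.923% and 1.42%. Cells with no ribosomal protein UMI numbered 0 in control 4 and 10 in CYR61 1. Barcodes under 300 genes held member shares from 0.492% to 1.16%.

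The profile of member levels was much alike between libraries: over pairs of libraries, Spearman's rho across the 84 genes ran from 0.945 to 0.991. The points are genes, which share a library and an annotation, so this is a description without a test.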
